A study of Mus musculus with 3 samples.

Results

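Retinoid X receptor alpha (RXRα) was bound at 9151 intergenic regions that lay over 10 kb and up to 100 kb from the nearest start of a protein-coding gene, out of 42117 RXRα regions in the mouse liver genome. These regions, called distal intergenic regions here, made up 21.7% of all RXRα regions, which is the share that the rule itself sets. The members were selected on measured values. A 32 bp bin counted as bound when the RXRα signal reached at least 20 times the larger of the local and the mean input signal, bound bins no more than 200 bp apart were merged into a region, and the midpoint of the region had to lie outside the bodies of the 22367 protein-coding genes in GENCODE release M1 on the NCBI37/mm9 genome. The height of RXRα over input is therefore given below as a description of the members.

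The 3 libraries were made from liver of wild type male mice of the C57BL/6 strain, 3 months old by the labels. There was 1 library of chromatin precipitated with an RXRα antibody, 1 of input chromatin without precipitation and 1 precipitated with an antibody to retinoic acid receptor alpha (RARα). With 1 library each there were no replicates, no test was possible, and all intervals (95%) cover counting error only. The RXRα and input signals corresponded to 10000000 reads each, each read covering 5 bins, and the RARα library was available as a list of 143280 peaks with a score. Both totals are nearly the same round number and the study counts more RXRα reads, so the signal may have been scaled or sub-sampled before deposit. Read counts and their intervals below refer to the signal as deposited. The study's methods tie their cut off to a multiple of the input signal, and the RARα list does not say whether its score is such a multiple.

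RXRα is a nuclear receptor that binds DNA mostly as a heterodimer with partners such as RARα, PPARα (the fatty acid receptor), LXR (oxysterols), FXR (bile acids) and PXR (xenobiotics). Each receptor of the dimer recognises a short half-site, typically AGGTCA, and the spacing and orientation of a pair of half-sites differ between partners. In liver, many such sites lie far from promoters in enhancers, where hepatocyte factors of the C/EBP, FOXA and HNF families also bind.

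Sequences that reach 100 bp to either side of the bin with the highest RXRα ratio (the summit) follow for 10 distal regions, read from NCBI37/mm9 in the 5′ to 3′ direction of the strand named. The first 5 were chosen because they hold a pair of half-sites in a known nuclear receptor arrangement near a gene of retinoid or lipid biology or near a summit of very high signal, and capitals mark the half-sites of the pair. The other 5 belong to distal regions with the highest RXRα signal over input, and capitals mark the copy of AGGTCA nearest to the summit.
Pdk4 region, chr6:5421068-5421268, plus strand: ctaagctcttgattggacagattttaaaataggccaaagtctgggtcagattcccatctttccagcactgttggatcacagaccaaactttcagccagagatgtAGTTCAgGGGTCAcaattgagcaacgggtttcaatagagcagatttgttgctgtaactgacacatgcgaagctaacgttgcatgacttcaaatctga
Rxra region, chr2:27495500-27495700, minus strand: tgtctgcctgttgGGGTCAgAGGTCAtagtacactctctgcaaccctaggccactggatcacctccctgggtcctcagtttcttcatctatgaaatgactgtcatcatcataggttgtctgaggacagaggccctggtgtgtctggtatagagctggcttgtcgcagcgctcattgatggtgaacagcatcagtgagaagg
Cyp26a1 region, chr19:37863916-37864116, plus strand: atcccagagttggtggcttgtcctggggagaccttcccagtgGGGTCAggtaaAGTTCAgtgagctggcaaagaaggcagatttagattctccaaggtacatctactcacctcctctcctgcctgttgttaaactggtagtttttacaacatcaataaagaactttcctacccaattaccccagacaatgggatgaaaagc
Gne region, chr4:44117228-44117428, plus strand: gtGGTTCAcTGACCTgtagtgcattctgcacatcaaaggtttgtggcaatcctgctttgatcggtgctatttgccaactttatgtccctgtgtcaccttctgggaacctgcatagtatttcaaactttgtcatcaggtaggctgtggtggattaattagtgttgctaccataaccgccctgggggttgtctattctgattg
Fgf21 region, chr7:52853036-52853236, plus strand: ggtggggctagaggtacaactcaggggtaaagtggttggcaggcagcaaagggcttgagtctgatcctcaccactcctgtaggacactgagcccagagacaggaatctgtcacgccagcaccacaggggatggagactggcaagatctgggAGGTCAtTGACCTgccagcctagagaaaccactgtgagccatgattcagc
Emp2 region, chr16:10347788-10347988, plus strand: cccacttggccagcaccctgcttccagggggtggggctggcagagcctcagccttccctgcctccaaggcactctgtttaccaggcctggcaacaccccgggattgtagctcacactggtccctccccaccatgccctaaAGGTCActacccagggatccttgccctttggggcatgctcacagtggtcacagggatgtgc
Slc25a10 region, chr11:120371372-120371572, plus strand: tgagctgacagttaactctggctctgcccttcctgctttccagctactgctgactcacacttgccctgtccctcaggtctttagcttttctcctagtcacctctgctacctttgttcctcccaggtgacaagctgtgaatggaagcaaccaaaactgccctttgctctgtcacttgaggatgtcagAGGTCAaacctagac
Pdp1 region, chr4:11795820-11796020, minus strand: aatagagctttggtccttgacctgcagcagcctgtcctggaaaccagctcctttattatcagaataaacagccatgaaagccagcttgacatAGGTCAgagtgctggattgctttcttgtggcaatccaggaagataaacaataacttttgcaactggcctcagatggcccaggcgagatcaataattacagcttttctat
Gm1968 region, chr16:29985740-29985940, plus strand: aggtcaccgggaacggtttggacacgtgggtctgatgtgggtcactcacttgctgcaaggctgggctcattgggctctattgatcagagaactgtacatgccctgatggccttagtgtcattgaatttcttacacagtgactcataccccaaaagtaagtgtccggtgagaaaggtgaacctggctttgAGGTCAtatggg
Cyp3a16 region, chr5:146191948-146192148, minus strand: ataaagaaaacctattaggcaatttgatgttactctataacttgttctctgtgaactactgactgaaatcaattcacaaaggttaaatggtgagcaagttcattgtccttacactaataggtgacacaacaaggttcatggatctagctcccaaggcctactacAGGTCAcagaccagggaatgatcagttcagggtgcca

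The Pdk4 and Rxra sequences hold direct repeats with a spacer of 1 base, an arrangement used by PPARα with RXRα among others. In the Cyp26a1 sequence the spacer of the direct repeat is 5 bases, the classical arrangement for RARα with RXRα. The Gne and Fgf21 sequences hold inverted repeats with a spacer of 1 base, the arrangement best known for FXR with RXRα, and in the Fgf21 sequence both half-sites match AGGTCA without a mismatch. In the order printed, the centres of the 5 pairs lay 10, -81, -50, -92 and 57 bp from the summit on the printed strand. The Cyp26a1 pair lay outside the called region and the Rxra pair across its edge. A match of letters is a description of the sequence and not a measurement of which receptor was bound.

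RXRα signal over input at the distal regions ranged from 20.2 to 348 times, with a median of 36.5 and quartiles of 26.5 and 56.4. The median over all RXRα regions was 34.8. The highest bin of a distal region was covered by 13 to 255 RXRα reads with a median of 28, and 66.5% of the distal regions had no input read in that bin. The weakest members without input held 13 reads, for which the Poisson interval runs from 6.92 to 22.2 reads, so counting error alone spans the threshold there. The distal regions had a median width of 128 bp, from 32 to 1440 bp, and 18.9% were a single bin. In all they covered 1.47 Mb, which took up 5.48% of the RXRα reads and 0.159% of the input reads. In 6.29% of the distal regions, 50% or more of the reads began in the same bin, and this share was 15.2% in the lowest quartile of the ratio and 0.467% in the highest.

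The average RXRα signal was confined to a narrow interval around the summit. It was 38.3 reads per bin at the summit, 4.23 at 512 bp upstream in genome coordinates and 2.23 at 2560 bp. The input signal was 0.430 at the summit, 2.11 at 160 bp and 0.849 at 2560 bp, and its dip at the summit comes with the rule, which picks the bin with the highest ratio. Input was thus also higher beside the summits of distal regions than at a distance.

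**Figure D1:**
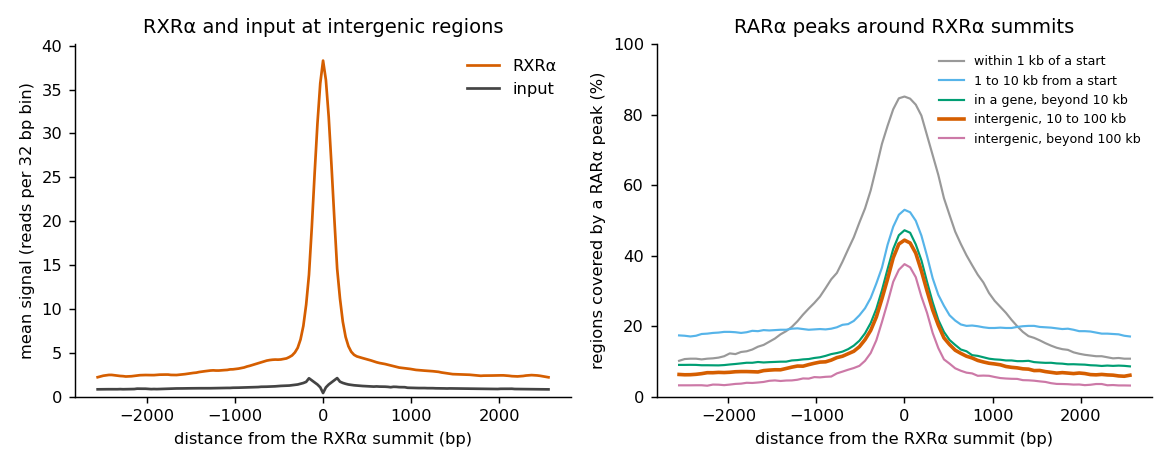
Left, mean RXRα and input signal (reads per 32 bp bin) against the distance in bp from the summit of the distal intergenic regions; right, the percent of regions covered by a RARα peak at each distance, by position class. RXRα reaches 38.3 reads per bin at the summit and input stays below 2.2, while RARα peaks cover 44.4% of the distal regions at the summit and 85.1% of the regions within 1 kb of a gene start.

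The strongest 10 distal regions had 292 to 348 times the input signal, and all 10 had 0 input reads in the highest bin. The highest, 33.8 kb upstream of Emp2, a tetraspan membrane protein, had 210 RXRα reads, no input read and a RARα peak of score 17. The region 18.4 kb downstream of the start of Slc25a10, the mitochondrial dicarboxylate carrier, had 204 RXRα reads and a RARα score of 22. The region 97.7 kb downstream of the start of Pdp1, a phosphatase that activates pyruvate dehydrogenase, had 203 RXRα reads and no RARα peak. The summits of these 3 thus had nearly the same RXRα signal and differed in RARα. Next came regions near Gm1968 with a ratio of 324 and RARα score 20, and near 2810405K02Rik with a ratio of 314 and score 25. The region 38.5 kb from Cyp3a16, a xenobiotic-metabolising cytochrome P450, had 184 RXRα reads, and that near Adck3, a coenzyme Q biosynthesis gene, had 182, both without a RARα peak. Papss1, which makes the sulfate donor for sulfation, had a region 76.1 kb upstream with 181 reads and a RARα score of 23. Gne, the key enzyme of sialic acid synthesis, had one 20.2 kb upstream with 180 reads and a score of 15. Gorasp2, a Golgi stacking protein, had one 13.7 kb upstream with 176 reads and no RARα peak. In all, 6 of the 10 carried a RARα peak, 3 of them with a score over 20. In the highest quartile of the ratio, 61.9% of the distal regions had a RARα peak and 26.6% a score over 20.

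Just inside the threshold, regions near Sulf2, Rapgef2 and Adh7 had ratios of 20.2, 20.3 and 20.3, with 81, 61 and 61 RXRα reads over 4, 3 and 3 input reads. Just outside it, regions near Il1r1, Tm4sf20 and C130026I21Rik each had 20 reads over 1 input read. At the limit of 10 kb, regions at -10001 bp from Lamp2, -10002 bp from Otud7b and 10005 bp from Nr0b2 (negative is upstream) were kept, and regions near Fermt2, Lfng and Ly6a at -9999, -9999 and -10000 bp were not. At the limit of 100 kb, the Stx16, AI429214 and Bhmt-ps1 regions were the last inside, and those of Ccdc85a, Mrpl21 and Ccnd1 the first outside.

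Along the genome, distal regions became sparser with distance from gene starts. Counted per Mb of sequence that meets the distance and gene rules, RXRα regions had a density of 125 per Mb within 1 kb of a start, 29.8 at 1 to 10 kb, 17.7 inside genes beyond 10 kb, 15.4 (15.1 to 15.7) for the distal intergenic regions and 4.70 beyond 100 kb. Within the distal zone the density upstream of the nearest start went from 20.1 per Mb at 10 to 20 kb to 11.9 at 50 to 100 kb, and downstream from 18.1 to 12.8. Although 65.9% of the distal regions (6034) lay upstream of the nearest start, the densities were 15.6 (15.2 to 16) upstream and 15.1 (14.6 to 15.7) downstream. The upstream share followed the sequence available, which was 387 Mb upstream and 206 Mb downstream under a rule that leaves out gene bodies. Another RXRα region lay within 10 kb of 69.0% of the distal regions, with a median of 3888 bp to the nearest one. Over all RXRα regions these values were 71.5% and 3344 bp. Per Mb of whole chromosome length, rather than of distal sequence, the number was 5.49 on chromosome 19 and 1.11 on the X chromosome. These values therefore cannot be set against the densities above.

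RARα, which the rule did not use, was found at fewer distal regions than at RXRα regions near genes. An overlap was counted when it reached 25% of the narrower interval. A RARα peak of any score overlapped 4193 of the 9151 distal regions, or 45.8% (44.8 to 46.8), against 53.3% of all RXRα regions. With a RARα score over 20 the share was 18.4% (17.7 to 19.2; 1687 regions), against 25.1% of all RXRα regions. RARα peaks of any score lay at 86.7% of the RXRα regions within 1 kb of a start, at 54.3% of those at 1 to 10 kb, at 48.7% of those inside genes and at 38.9% of those beyond 100 kb. For scores over 20 these shares were 67.1, 24.5, 17.6 and 11.6%. Distal regions therefore stood between the regions within 10 kb and those beyond 100 kb at both thresholds, and the intervals of the distal and the in-gene regions overlapped for scores over 20. For scores over 50 they did not, with 2.88% (2.56 to 3.25) of the distal and 1.94% (1.72 to 2.18) of the in-gene regions. Windows of the same width displaced by 5 kb from the distal regions gave 6.57% for any score and 2.57% for a score over 20. Where a distal region had a RARα score over 20, the summits were a median of 73 bp apart. Read from the other side, 1696 of the 5614 RARα peaks with a score over 20 in the distal zone, or 30.2% (29 to 31.4), lay on an RXRα region. This was the lowest share of the position classes but close to the others, which ranged from 31.4% (30.4 to 32.4) inside genes to 34.8% at 1 to 10 kb. For RARα peaks of any score the distal share was 19.5%, within the range of 14.5 to 20.8% of the other classes.

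The share with a RARα peak was larger where RXRα signal was higher. From the lowest to the highest quartile of the ratio, 36.3, 39.5, 44.7 and 61.9% of the distal regions had a RARα peak of any score. For scores over 20 the shares were 15.5, 13.8, 17.5 and 26.6%, so the second quartile was lowest and the highest quartile had the largest share. The intervals of the second (12.5 to 15.3) and the third quartile (16 to 19.1) did not overlap. The relation did not extend to the strongest RARα peaks. Distal regions without a RARα peak had a median ratio of 33.2, those with scores of 11 to 20 had 43.1, those with 21 to 50 had 47.0, and the 264 with a score over 50 (2.88%) had 29.9. The share of score over 20 was 21.1% at 10 to 20 kb from a start and 16.7% at 50 to 100 kb.

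A part of the distal regions lay in sequence that occurs more than once in the genome. Of the 9151 windows of 100 bp to either side of the summit, 7103 (77.6%) held only stretches of 31 bases found once in NCBI37, compared with 89.6% of the windows within 1 kb of a start and 87.1% of those inside genes. In 384 windows no such stretch was found once, and 4 of them (1.04%) overlapped a RARα peak of any score, although their median ratio was also 36.5. Among the fully unique windows the RARα share was 51.7% (50.5 to 52.8) for any score and 21.2% (20.3 to 22.2) for a score over 20. In the same kind of windows inside genes it was 50.8% (49.9 to 51.7) and 18.6% (17.9 to 19.3). In unique windows the order of distal and in-gene regions for any score thus turned, with intervals that overlapped, and for scores over 20 the intervals no longer overlapped. The study describes its RXRα and RARα reads as uniquely mapped, and how a read was called unique, and whether this holds for the deposited signal and the input, is not given in the sources used here. The part of the alignment in these RARα shares was not tested.

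**Figure D2:**
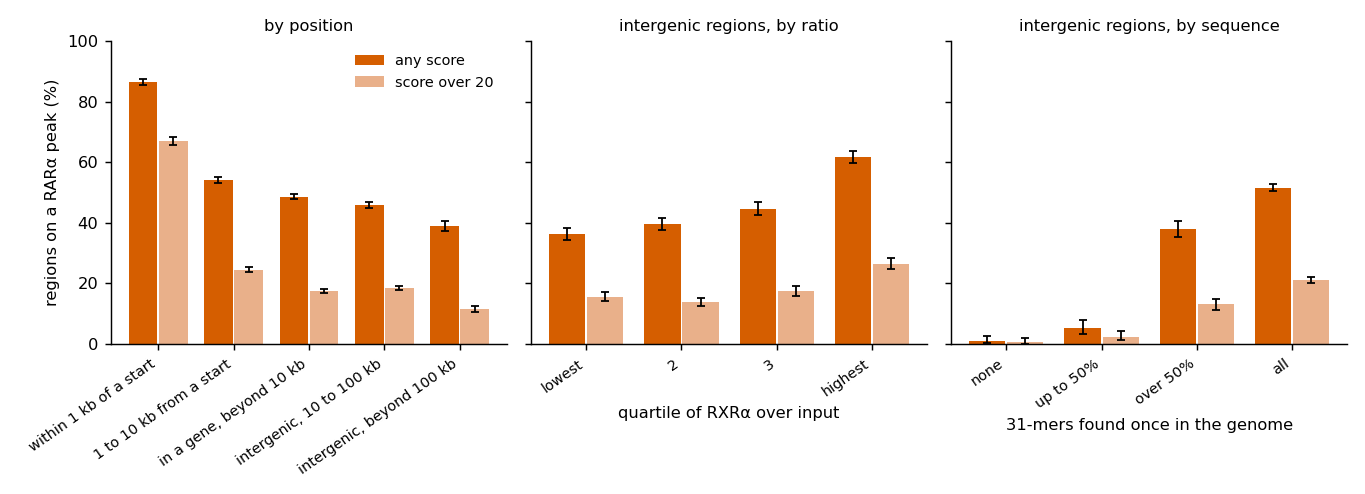
Percent of RXRα regions that overlap a RARα peak of any score (dark) or with a score over 20 (light), with 95% Wilson intervals, by position (left), and for the distal intergenic regions by quartile of RXRα over input (middle) and by the share of 31-base stretches found once in the genome (right). The share for any score goes from 36.3% in the lowest to 61.9% in the highest quartile, and from 1.04% in windows without a unique stretch to 51.7% in fully unique windows.

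One repeated sequence recurred at the distal summits. The 8 bases CGGGTACA were the sequence of that length most enriched at distal summits over the flanks, and were picked for this reason after the values were seen. Their centre lay within 100 bp of the summit in 187 distal regions (2.04%). The median ratio of these regions was 46.5, from 21.5 to 166, and 8 of them (4.28%) had a RARα peak. Their windows had a median of 0% of 31-base stretches found once in the genome. Over all distal windows without a unique stretch the RARα share was 1.04%, and with over 0 to 50% unique stretches it was 5.16%. A low RARα share was thus not particular to this sequence. The 24 bases shown are the most frequent base at each position of these distal copies, aligned on the 8 bases. They let exact copies be located, and not every distal copy matches all 24.
Repeated core: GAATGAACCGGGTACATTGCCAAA
This core has 249 exact copies in the genome, and an RXRα region lay within 200 bp of 238 of them (95.6%). In the distal zone there were 95 copies, 91 of them at a distal region. Because the core was derived from windows of distal regions, these counts are a description and no separate support for binding at the repeat. The highest bin near a copy of the core held a median of 30 RXRα reads and 1 input read, and the median RXRα value 5 kb away was 1. Counting only windows that hold all 8 bases, the share was 4.53% beyond 100 kb, compared with 2.02% of the distal windows and 0.283% of those within 1 kb of a start. Of the 187 distal regions, 38 (20.3%) lay on the X chromosome, which holds 2.02% of all distal regions. The median 31-base stretch of these windows occurs 173 times in the genome, so whether the reads came from each of the copies cannot be told from these files. The repeat family was not identified here.

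The half-site of nuclear receptors was concentrated at the distal summits. AGGTCA occurred on either strand in 33.5% (32.5 to 34.4) of the distal windows and in 13.1% (12.6 to 13.6) of the windows of the same length that begin 500 bp from the summit on both sides. It was found in 32.7% of all RXRα windows and in 21.7% of those within 1 kb of a start. By position, there were 12.2 and 12.6 copies per 100 distal regions in the 50 bp on either side of the summit, against 3.30 to 3.75 in each 50 bp at 400 to 500 bp. The half-site has 4 spellings here, AGGTCA itself, its variant AGTTCA, a further variant GGGTCA, and as the last one GGTTCA. Any of the 4 spellings occurred in 67.1% of the distal windows, 38.7% of the flanks and 49.3% of the windows within 1 kb. Of the 187 distal windows with the repeated sequence described above, 180 (96.3%) held any of the 4 spellings and 6 (3.21%) held AGGTCA. In fully unique distal windows the shares were 34.6% for AGGTCA and 65.7% for the 4 spellings.

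Paired half-sites were rare in absolute terms. Using the 4 spellings on both strands, a direct repeat spaced by 1 base occurred in 131 distal windows, or 1.43% (1.21 to 1.70), against 0.164% of the flanks, 1.33% of all RXRα windows and 0.605% of the windows within 1 kb. Spacings of 0, 2, 3, 4 and 5 bases were found in 1.01, 0.634, 0.262, 0.372 and 0.481% of the distal windows and in 0.355, 0.208, 0.0492, 0.12 and 0.0983% of the flanks. An inverted repeat spaced by 1 base occurred in 32 distal windows (0.350%, 0.248 to 0.493) and in 0.0273% of the flanks. Together 368 distal windows (4.02%) had a direct repeat with 0 to 5 bases of spacing. Other arrangements did not all have higher shares than the flanks. The inverted repeat spaced by 2 bases was in 0.0219% (2 windows) against 0.0437%, and that spaced by 3 bases in 0.131% (12 windows) against 0.0109%. Most distal regions held no direct repeat in these spellings, which says only that these letters are not in these windows.

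Motifs of several other liver factors were also more frequent at distal summits than in their flanks, at shares near those of all RXRα windows. The C/EBP motif TTGCNNAA was found in 18.5% of the distal windows, 8.10% of the flanks, 15.9% of all RXRα windows and 8.45% of the windows within 1 kb. The repeated sequence described above contains a match to it, and in fully unique windows the share was 17.3% (16.4 to 18.2) for the distal regions, 16.2% inside genes and 21.3% beyond 100 kb. The HNF4A motif CAAAGTCCA occurred in 2.13% of the distal windows, 0.377% of the flanks and 1.80% of all RXRα windows, and 1 distal window held both it and a direct repeat spaced by 1. The FOXA motif, TATTTAC or, with the other purine, TGTTTAC, occurred in 10.1% of the distal windows, 6.35% of the flanks and 9.82% of all RXRα windows. The AP-1 motif, TGACTCA or the alternative TGAGTCA, occurred in 6.22, 3.88 and 5.39% in the same order. The PU.1 motif GAGGAAGT, of the myeloid factor, was at 1.31% in the distal windows, 1.23% in the flanks and 1.34% in all RXRα windows. The longer HNF1 motif was found in 3 distal windows and 0 flanks. The motif of CTCF, a factor that organises chromatin loops, was at 0.885% (81 windows), 0.137 and 0.679%. In base composition the distal windows were far from promoters, with a median GC of 47.8% against 59.7% within 1 kb of a start, and 10 or more CpG in 2.73% against 55.8%.

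**Figure D3:**
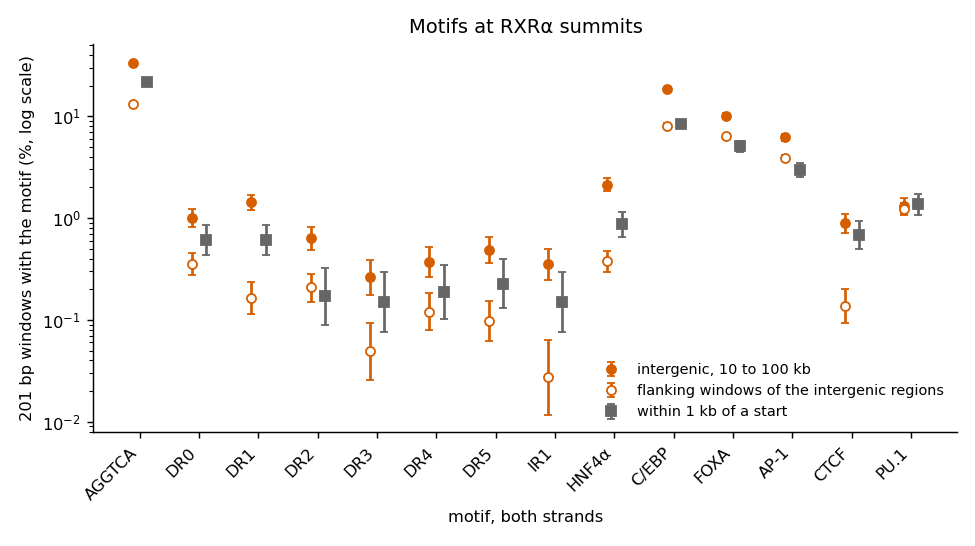
Percent of windows of 100 bp to either side (log axis) that hold each motif at distal intergenic summits (filled circles), in their flanks 500 bp away (open circles) and at RXRα summits within 1 kb of a gene start (grey squares), with 95% Wilson intervals. AGGTCA is at 33.5% of the distal summits and 13.1% of the flanks, and the direct repeat spaced by 1 base at 1.43 and 0.164%.

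Distal regions with and without RARα differed in sequence. AGGTCA occurred in 35.1% of the distal windows without a RARα peak, in 33.7% of those with a score up to 20, in 28.5% of those over 20 and in 19.3% of those over 50. The direct repeat spaced by 5 bases, the classical RARα arrangement, was at 0.605% without a RARα peak and at 0.356% (6 windows) with a score over 20, and the intervals of these shares overlapped. The CTCF motif went the other way, from 0.161% without a RARα peak to 3.50% over 20 and 10.2% (7.12 to 14.5; 27 of 264) over 50. Windows with 10 or more CpG made up 1.15, 2.39, 7.88 and 19.7% in the same order. In fully unique windows the C/EBP motif was at 17.7% without a RARα peak, 18.1% up to 20, 15.1% over 20 and 7.88% over 50. CTCF, AGGTCA and CpG kept their order there, with 0.117, 0.462, 3.72 and 10.8% for CTCF. A start of a non-coding gene or pseudogene lay within 1 kb of 2.48% of the distal regions without a RARα peak and 9.09% of those with a score over 50. The shares at score over 50 rest on 264 distal regions, some of which share a RARα peak.

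By the rule, a distal region can lie in or beside a gene that does not code for protein. Of the 9151, 639 (6.98%) were inside such a gene or pseudogene and 267 (2.92%) within 1 kb of its start. Of the latter, 77 were nearest to a pseudogene, 72 to a processed transcript, 46 to a lincRNA and 17 to a miRNA gene. The highest RARα score on a distal region, 251, was at such a place, on chr19:5845473-5846048, 282 bp from the start of Neat1, a long non-coding RNA that builds nuclear paraspeckles. This region is 29.5 kb from Frmd8, the nearest protein-coding start, and had 51 RXRα reads, no input read and a ratio of 84.6. In all 13 distal regions were nearest to Frmd8, 8 of them overlapped Neat1 (chr19:5824708-5845478, minus strand), and all 13 carried RARα peaks, with scores from 21 to 251. The regions along the Neat1 body were weak in RXRα, such as one with 13 reads, no input read and a RARα score of 154. A similar arrangement was found near Tubd1, where 4 distal regions with 16, 30, 23 and 42 RXRα reads shared 1 RARα peak of score 187 that spans chr11:86392791-86395451. The nearest distal region was 1260 bp from the start of Mir21, a miRNA gene.

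Distal regions were unevenly distributed over genes. Of the 14902 protein-coding genes with sequence in the distal zone, 3799 (25.5%) had at least 1 distal region, 1847 of them had 1, 1488 had 2 to 4, and 464 had 5 or more. A gene with a distal region had an RXRα region within 1 kb of its start in 30% (28.5 to 31.5) of cases, against 15% (14.4 to 15.7) of genes with distal sequence and no distal region, and in 45% with 5 or more. Most genes with a distal region thus had no RXRα region within 1 kb of the start. Within 10 kb, however, 53.5% (51.9 to 55.1) of them had one, against 26.3% (25.5 to 27.1) of genes with distal sequence and no distal region. With 5 or more distal regions the share within 10 kb was 72.6%.

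The genes with the most distal regions stood in long bound stretches. There were 30 nearest to 3930402G23Rik over 112 kb, with a median ratio of 45.6, a highest ratio of 184 and 7 RARα scores over 20. These regions were 42.7 to 154 kb from the start of Irs2, an insulin receptor substrate with 10 distal regions of its own, so nearest-gene names split this stretch. Ptpn1, a phosphatase that acts on the insulin receptor, had 21 distal regions over 55.6 kb, 11 with a RARα score over 20, and its strongest had 124 RXRα reads over 1 input read. All were upstream and 145 to 200 kb from the start of Cebpb, a C/EBP family factor, which itself has no sequence in the distal zone. Irf2bp2, a transcriptional corepressor, and St3gal1, a sialyltransferase, each had 19, with 5 and 2 RARα scores over 20. Phlda1 had 16, with 6 over 20. Among the next, Tob1, an antiproliferative gene, had 14 distal regions and 12 of them a RARα score over 20, while Pfkfb3, a regulator of glycolysis, had 15 and 1. The number of distal regions and the number with RARα were thus not parallel between genes. The nearest gene is an assignment by distance and does not show which gene a region acts on.

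In lists written with earlier results of these data known, genes of hepatocyte function had more distal regions per Mb than genes at large. The density intervals count each distal region separately, although some genes held many, such as Acsl1 with 14. Over 9 lists of hepatocyte genes the density was 59.3 per Mb (53.4 to 65.7), or 3.85 times the 15.4 per Mb of all genes, with 364 distal regions at 104 of 219 genes. Over 5 lists of genes of other cell types (macrophages, stellate cells, endothelial cells, neurons and muscle) it was 10.1 (6.98 to 14.1), with 34 distal regions at 21 of 80 genes. Lrat, which stores retinol as esters, has 2 distal regions and stands in both groups, on the retinoid and the stellate cell list. Without it the densities were 59.4 and 9.61 per Mb. As a check of the tissue, all 7 hepatocyte markers had an RXRα region within 10 kb and 6 had distal regions, against 1 and 0 of 7 Kupffer cell markers and 0 and 1 of 5 neuron markers. For stellate cell markers the counts were 1 and 3 of 6, for endothelial markers 3 and 2 of 6 and for skeletal muscle markers 2 and 1 of 5. Of all 22367 protein-coding genes, 7614 had an RXRα region within 10 kb and 3799 (17.0%) a distal region. Among other liver cells, 2 of 5 cholangiocyte markers (Sox9 and Spp1) had an RXRα region within 10 kb, and 3 (Sox9, Epcam and Spp1) had 14 distal regions. The cholangiocyte markers had 41.7 distal regions per Mb, against 108 for the hepatocyte markers and 35.6 for the retinoid list of the 9. The 5 lists of other cell types include no cholangiocyte list, so their density does not cover these cells.

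Genes of fatty acid oxidation and ketogenesis had 78.5 distal regions per Mb (57.7 to 104), with 47 distal regions at 12 of 25 genes. Acsl1, which activates long-chain fatty acids, had 14 of them, and its strongest, 85.0 kb upstream, had 135 RXRα reads, no input read and a RARα score of 20. Lipogenesis and triglyceride genes had 71.2 per Mb, led by a region 12.1 kb upstream of Gpam, the first enzyme of glycerolipid synthesis, with 108 RXRα reads and a RARα score of 29. Bile acid and sterol genes had 66.1 per Mb, with 11 distal regions at Insig1, which restrains sterol synthesis. The strongest of that list, 11.2 kb upstream of Cyp7b1, a hydroxylase of the acidic bile acid pathway, had 128 reads and a RARα score of 21. These 3 lists had overlapping intervals of density. RARα scores over 20 were found at 23.4% (13.6 to 37.2), 19.4% (9.75 to 35) and 24.5% (14.9 to 37.6) of their distal regions, and each interval holds the 18.4% of all distal regions.

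Xenobiotic genes (64.9 per Mb, 16 of 24 genes), glucose genes (62.6, 11 of 20), plasma protein genes (61.0, 11 of 30) and urea cycle and amino acid genes (60 per Mb, 10 of 22) had similar densities, with intervals that overlapped. A RARα score over 20 was found at 8.33% (3.29 to 19.6) of the 48 distal regions of glucose genes, 10.8% (4.29 to 24.7) of the 37 of xenobiotic genes, 21.7% (9.66 to 41.9) of the 23 of urea cycle and amino acid genes and 34.5% (19.9 to 52.7) of the 29 of plasma protein genes. The interval of the plasma protein genes lies above the 18.4% of all distal regions and overlaps that of the xenobiotic genes. It counts regions separately, and of the 10 plasma protein regions over 20, 3 had the same nearest gene. The strongest regions of these lists were 15.6 kb upstream of G6pc, which releases free glucose, with 91 RXRα reads and no RARα peak, 31.6 kb upstream of Cyp2c70 with 76 reads and score 16, 36.1 kb upstream of Alb with 50 reads and no RARα peak, and 24.2 kb upstream of Arg1, the last enzyme of the urea cycle, with 127 reads and no RARα peak. Each had 0 input reads in the highest bin.

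Transcription factor and partner receptor genes had 66 distal regions at 13 of 29 genes, 52.8 per Mb, and the largest RARα share, 37.9% (27.1 to 49.9) with a score over 20. Foxa2 had 13 of these regions, Ppara 11, Cebpa 8 and Onecut1 7. Of the 25 regions of the list with a score over 20, these genes held 8, 3, 4 and 5 in the same order. The share thus rests largely on a few genes. The strongest was 14.4 kb upstream of Onecut2 with 130 RXRα reads, no input read and no RARα peak. Retinoid genes had the lowest density of the hepatocyte lists, 35.6 per Mb (24.4 to 50.3; 32 regions at 10 of 24 genes). A RARα score over 20 was found at 9 of these regions (28.1%, 15.6 to 45.4), and 7 of the 9 were nearest to Rxra. The interval holds the 18.4% of all distal regions. Of the lists of other cell types, endothelial genes had 27.8 per Mb (14.8 to 47.5), muscle genes 13.5, stellate cell genes 9.15, macrophage genes 7.35 and neuron genes 3.44. Among their strongest regions were those near Erg with 108 RXRα reads and a RARα score of 25, Mb with 51 and 26, Lrat with 28 and no RARα peak, and Bdnf with 27 and no RARα peak. These lists rest on 4 to 13 distal regions each.

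**Figure D4:**
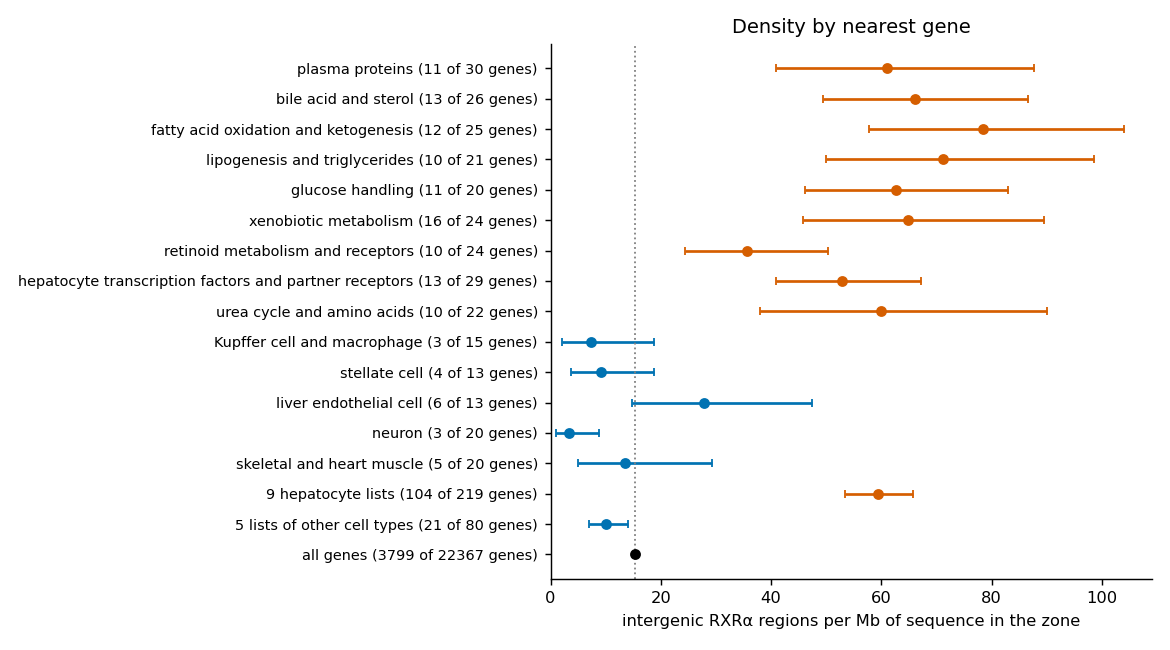
Distal intergenic RXRα regions per Mb of distal sequence around the genes of each list, with 95% Poisson intervals; hepatocyte lists in orange, lists of other cell types in blue, all genes in black with the dotted line at 15.4. The 9 hepatocyte lists lie between 35.6 and 78.5 per Mb and the 5 other lists between 3.44 and 27.8.

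Rxra, the gene of the receptor itself, had 10 distal regions, all upstream, within 43.8 kb. They fell into a group at 76.7 to 80 kb, a group at 49.7 to 54.6 kb and 1 region at 36.4 kb. RXRα reads in the highest bin were 95, 80, 84 and 27 in the first group, 207, 105, 21, 14 and 21 in the second and 79 at 36.4 kb, over 0 to 4 input reads. All 10 had a RARα peak, with scores from 11 to 66, and 7 were over 20. The region with most reads, at 51.4 kb, had 4 input reads and so a ratio of 51.7, while the highest ratio, 158, was at 79.2 kb with 95 reads and no input read. The window of the region at 36.4 kb is printed above and holds a direct repeat spaced by 1 base, across the edge of the region. This region had a RARα score of 23.

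Other retinoid and nuclear receptor genes differed in number and in RARα. Cyp26a1, which degrades retinoic acid, had 1 distal region, 91.8 kb from its start. This region had 37 RXRα reads over 1 input read and no RARα peak. The direct repeat spaced by 5 bases printed above lies in its window but outside the region. Rarb had 0 distal regions in 0.0900 Mb of distal sequence and no RXRα region within 10 kb, and Rara had no distal sequence. Ppara had 11 distal regions at 12 to 74 kb upstream, with 23 to 60 RXRα reads. Of these, 9 had a RARα peak and 3 a score over 20, and 3 lay near the miRNA genes Mirlet7c-2 and Mirlet7b. Nr1h4, the gene of FXR, had 4 at 19.6 to 32.6 kb upstream, with 66, 47, 20 and 31 RXRα reads and no RARα score over 20. Nr0b2, the FXR target also called SHP, had 1, 10005 bp from its start, with 116 RXRα reads, no input read and a RARα score of 17. Cebpa had 8 on both sides, with 14 to 114 RXRα reads, 7 with a RARα peak and 4 over 20. Hnf4a, Cebpb and Apoe had no sequence in the distal zone.

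At metabolic genes known as nuclear receptor targets, most distal regions had no RARα peak or a score of 20 or less. This also holds for distal regions at large, of which 18.4% had a score over 20. Pdk4, which shuts off pyruvate dehydrogenase in fasting, had 7, with 105, 99, 75, 41, 54, 21 and 17 RXRα reads over 0 to 1 input reads. The strongest, 25.1 kb downstream of the start, holds the direct repeat spaced by 1 base printed above and had a RARα score of 16, the second had 13 and the other 5 had no RARα peak. The region 16.2 kb from the start had 17.5% unique stretches. Cyp7a1, the rate-limiting enzyme of bile acid synthesis, had 5 with 61, 47, 34, 102 and 13 RXRα reads, of which 2 shared a RARα peak of score 12. Fgf21, the fasting hormone, had 2 at 11.6 and 17.7 kb with 40 and 32 RXRα reads and RARα scores of 12 and 6. Cyp8b1, the 12α-hydroxylase of bile acid synthesis, had 1 with 32 reads and a score of 20, and Igfbp1 1 with 64 reads and a score of 10. Alb, the gene of albumin, had 6 at 13.1 to 46.3 kb upstream, with 50, 38, 153, 114, 19 and 60 RXRα reads over 0 to 3 input reads. The Alb region with 153 reads was the nearest of them to the gene and the one with a RARα score over 20, at 34. Angptl4 had 0 distal regions in 0.00499 Mb of distal sequence.

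**Figure D5:**
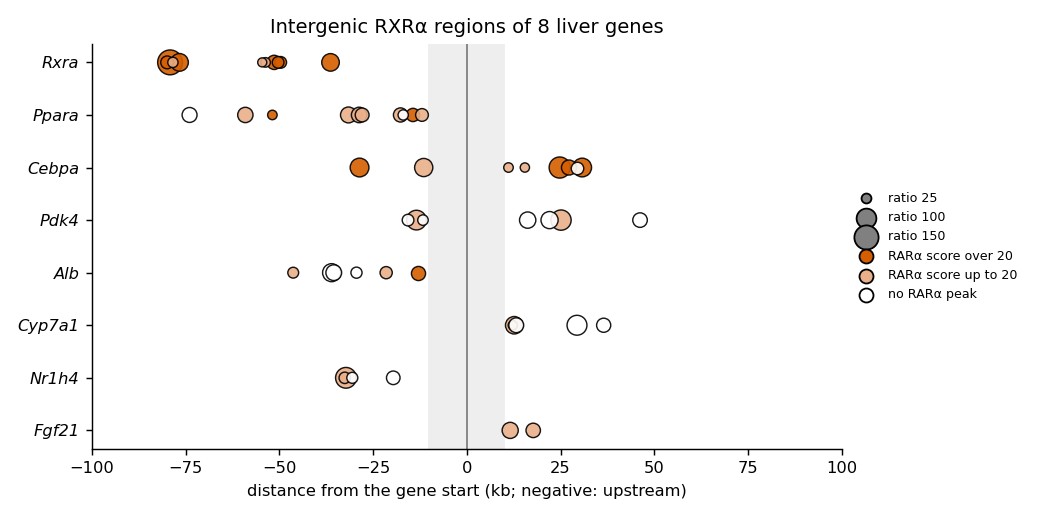
Distance in kb of the distal intergenic regions from the starts of 8 genes (negative is upstream), with symbol size by RXRα over input and fill by RARα score; the grey band marks 10 kb on either side. The 10 Rxra regions are all upstream and all carry a RARα peak, and of the 7 Pdk4 regions 2 carry one.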

How the data were processed

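Chromatin was sequenced from RXRα, RARα and input libraries of wild type mouse liver, 1 library each. The authors aligned the reads with Bowtie, and the submitters' processing notes also name CASAVA 1.4 and, for RARα, MACS. The deposited RXRα and input files hold a linear signal, namely coverage by extended reads per bin of 32 bp, without the empty bins. For RARα the authors deposited peaks with a score, of which the list does not say whether it is a fold over input as in the cut off of the methods, and a false discovery rate in percent, which was not used. The methods name mm10 for the alignment, while labels and headers name mm9, so NCBI37/mm9 sequence and GENCODE M1 genes were used. Members and gene lists were chosen with earlier results of these data known.

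Tracks were scaled to the same mean and regions, classes and overlaps computed with Python 3.11.15, numpy 2.4.6, pandas 2.3.3, scipy 1.17.1, pysam 0.24.0 and numba 0.67.0, and plots with matplotlib 3.10.9. Shares carry Wilson intervals, densities and reads Poisson intervals. The deposited RXRα and input signal corresponds to 10000000 reads each and may have been scaled or sub-sampled by the authors, and 13 reads in a bin without input suffice for a region. No test was run, because regions of 1 library are not replicates. Motifs were searched on both strands within 100 bp of the summit, and the steps were tested on simulated data. Regions were named by rule, namely those with the highest ratio or RARα score, the strongest of each gene list, the genes with most distal regions, those next to a limit and textbook genes of liver and retinoid biology, with Tob1, Pfkfb3, Insig1, Foxa2, Onecut1, Neat1 and Mir21 and the repeated sequence added after their values were seen. Sequences were printed first for regions with a pair of half-sites and none from chromosome 18. A region that the naming rule picked is not reported here. Alternatives changed the threshold, the use of input, joining, width, annotation, overlap, score, window, mismatches and gene zone. Other published nuclear receptor data were not used here.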

Additional observations from a re-analysis of the deposited data

How the results depend on the processing

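The distal regions numbered 55759, 18139 and 5803 at thresholds of 5, 10 and 30 times input. Their share of all RXRα regions was 21.2, 20.6, 21.1 and 22.5% at 5, 10, 15 and 30 times, 20.8% with mean input alone, 20.8% with non-coding genes included and 20.3% in fully unique windows. The share with a RARα score over 20 was 6.64, 14.8, 17.1, 19.4 and 20.2% at 5, 10, 15, 25 and 30 times, 19.6% with mean input alone, 19.4% with adjacent bins only, 16.7% with non-coding genes included, 21.2% in fully unique windows, and 39.8 and 2.88% for scores over 10 and 50. For any score it was 15.8, 35.1, 42.1, 48.6 and 50.7% at the same thresholds, 43.7% with mean input alone, 47.5% with adjacent bins, 47.5% for regions of at least 2 bins, 43.9% with non-coding genes included and 51.7% in fully unique windows. The direct repeat spaced by 1 base was at 0.664% at 5 times input, 0.820 and 1.73% in windows of 50 and 200 bp to either side, and 2.69% when AGGTCA pairs with up to 1 mismatch counted. The hepatocyte density over that of all genes was 3.32 at 10 and 4.48 at 30 times. The alternative of fully unique windows and the one without regions whose reads begin mostly in 1 bin were chosen after seeing the data. The other alternatives moved each value by less than its counting interval, and the number of distal regions by less than 1.5 times. No paired analysis was possible because the result comes from no test. With 1 library per antibody no replicate could be left out, variation between mice is unknown, and counting error alone makes membership of the weakest regions uncertain.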
